A study of Bos taurus with 96 samples.

Results

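The HOX cluster genes were followed over 5 fat depots and 1 muscle of cattle. A probe was taken as a member when its gene symbol was HOXA, HOXB, HOXC or HOXD followed by a number, where the symbol came from the accession on the array matched to the RefSeq gene table (ARS-UCD2.0) or from the probe tables of the study. This gave 18 HOX genes on 27 probes, out of 10653 named genes on 21445 of the 34227 probes tested. The HOXA cluster had 6 of these genes, HOXB 5, HOXC 5 and HOXD 2. By paralogue number 8 were anterior (1 to 4), 4 central (5 to 8) and 6 posterior (9 to 13). The RefSeq table lists 39 HOX genes, of which 19 had no named probe, so most of the HOXD cluster was not measured here. HOXC11 and HOXC12 were on the array but outside the tested set.

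HOX genes encode homeodomain transcription factors that give cells their address along the head to tail axis of the embryo. They lie in clusters, and the order of genes along a cluster follows the order of the body regions in which they act, with low numbers acting in the hindbrain and neck and high numbers in the lumbar, sacral and limb regions. Adult fibroblasts and preadipocytes keep much of this address, and human fat depots from different body sites are known to differ in their HOX genes. HOX proteins bind DNA with partner homeodomain proteins of the TALE class, such as MEIS1, and the Polycomb and Trithorax groups maintain the silent and active states of the clusters.

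All samples came from steers of 3 breeds, Angus, Hereford and Wagyu x Angus, given in the labels as 26 months old after 259 days in a feedlot. The 60 fat arrays came 12 each from subcutaneous fat (SC), from the marbling fat dissected out of the longissimus dorsi (intramuscular, IMF), from the fat between muscles (Inter), from around the kidney (Kid) and from the omentum (Omen), with 4 arrays for each breed in each depot, all from animals on the pasture diet after weaning. A further 36 arrays were of whole longissimus dorsi muscle with its fat in place (LD), 24 from pasture and 12 from supplemented animals. The methods of the study name an earlier slaughter for some LD samples, so the age in the labels may not hold for every LD array. The methods of the study place the SC site over the rump and draw the fat samples from a shared pool of steers, but the labels do not say which arrays share a steer, so the p-values below treat arrays as independent and measure the spread between arrays. In bulk tissue a lower signal from fewer cells of one type and from less RNA per cell cannot be told apart.

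Signal was read on 1-colour arrays, and each value below is the log2 signal of a probe relative to the 75th percentile of its own array, so that positive values are bright and strongly negative ones lie near the background. A median of 75.1% to 83.8% of probes per tissue was well above background. A gene is represented by its brightest probe, levels are compared between tissues for the same probe only, and a difference was called at an adjusted p under 0.05 in limma across all 34227 probes. Every IMF array carried muscle RNA: the mean level of the 10 measured markers of skeletal muscle fibres (of 11 listed) ranged from 6.12 to 7.90 in IMF, from 8.26 to 9.03 in LD and from -4.70 to -3.20 in SC. All 7 measured adipocyte markers (of 8 listed) were lower in IMF than in SC. The muscle fibre markers ran from -4.17 to 5.81 in Inter and from -4.76 to 0.16 in Kid, with 5 and 4 of 10 called higher than in SC. In Kid 1 was called lower. Among all named genes 19.6% were called higher in Inter and 20.9% in Kid. Of 8 markers of fibroblasts and fat progenitors 7 were lower than in SC in each of IMF, Kid and Omen and 3 in Inter. In IMF and in Inter 1 of them was higher. Among all named genes 39.0%, 23.8%, 31.9% and 32.8% were called lower in IMF, Kid, Omen and Inter. The part of muscle fibres and of stromal cells in the HOX values was not tested.

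A set of arrays stood apart from their labels. Over 30002 probes of other genes, 92 of 96 arrays lay nearest the mean of their own tissue. Of the other 4, a pair of Omen arrays lay as near to Kid as to Omen, and the remaining pair shared slide S04. On a scale from the Kid mean (0%) to the Inter mean (100%) the array labelled Kid, Hereford, at position 2 of slide S04 lay at 91.4%, whereas the other 11 Kid arrays lay between -25.1% and 35.7%. The array labelled Inter, Angus, at position 3 of slide S04 lay at 46.8%, against 74.6% to 106.0% for the other 11. For the Kid and Inter values that these arrays moved most, the value without them is given beside the result. One further Kid array, Hereford, at position 1 of slide S21, was the farthest from the Kid mean.

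Across the 5 fat depots 17 of the 18 HOX genes differed in the F test of limma, against 91.0% of all named genes, so depot differences as such were not particular to the HOX genes. HOXB4 was the exception by its brightest probe (adjusted p = 0.378), but another of its 3 probes passed (A_73_114875, adjusted p = 4.84e-09). The widest ranges of depot means belonged to the posterior genes HOXA10 and HOXA9 (9.44 and 5.56 on the log2 scale). HOXA9, HOXA10 and HOXC10 were lower in omental fat than in each of the other 4 depots, and the brightest probe of HOXB2 was higher there than in each of them, which the second HOXB2 probe did not share. No posterior gene was called higher than SC in IMF, Inter, Kid or Omen in the scaled values. The unscaled values are those the authors deposited, which lack the step to the 75th percentile and rest on another background-subtracted spot signal. There HOXC13 was called higher in all 4 (0.68 to 0.92), HOXD10 in IMF, Inter and Kid (0.75 to 1.39) and HOXC10 in Kid (0.75).

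**Figure D1:**
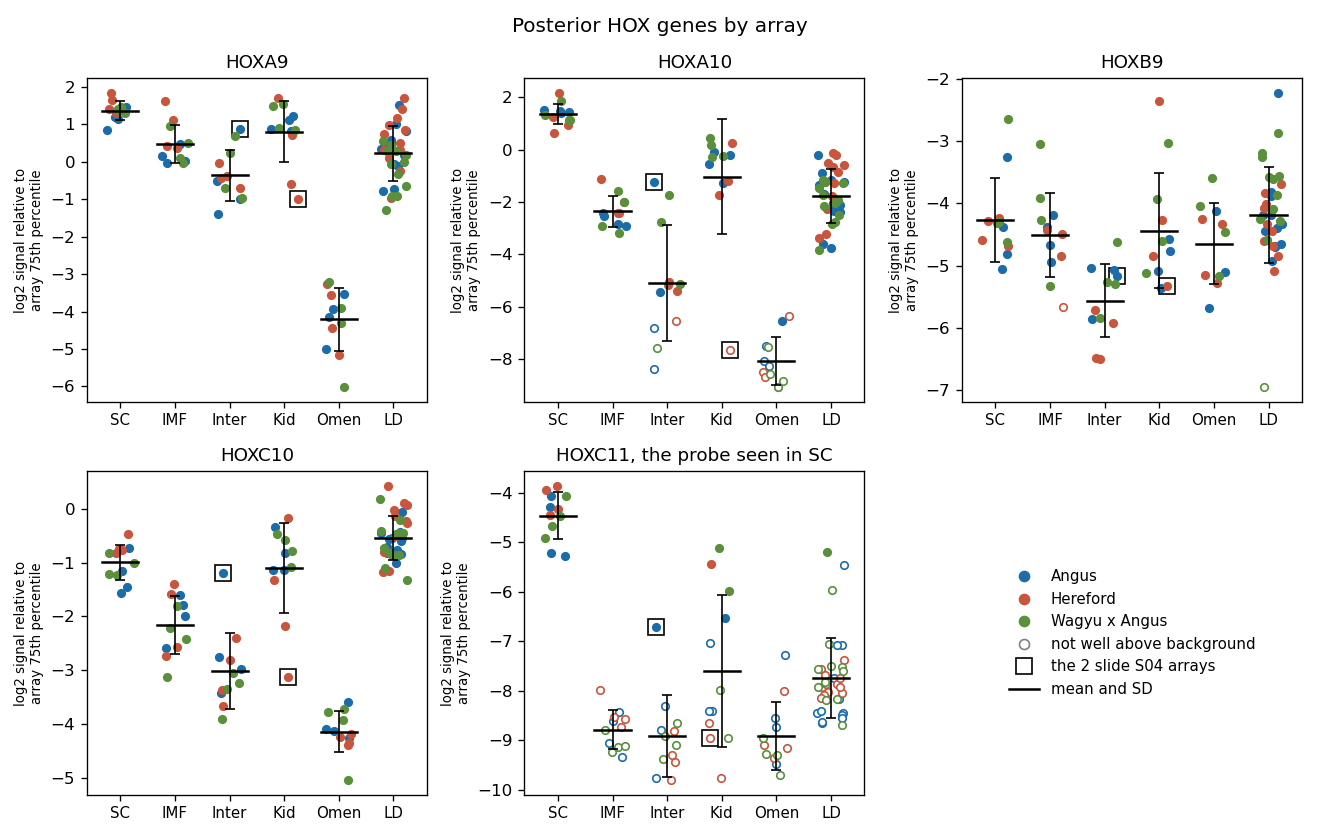
Posterior HOX genes by array. Each point is an array, as log2 signal relative to the 75th percentile of the array, by tissue and coloured by breed; open points were not well above background, squares mark the pair of slide S04 arrays, and bars give the mean and SD. HOXA9, HOXA10 and HOXC10 sit lowest in Omen, and the probe A_73_P090116 of HOXC11 was well above background on all 12 SC arrays but on none of the IMF or Omen arrays.

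In the HOXA cluster the widest range belonged to HOXA10, a posterior gene that patterns the lumbar skeleton and the uterus (probe A_73_104882). HOXA10 in SC ran from 0.64 to 2.16 with a median of 1.36. In Kid it ran from -7.67 to 0.43 with a median of -0.27, and in IMF from -3.17 to -1.11 with a median of -2.43. The lowest Kid value was the array of slide S04, and without it the Kid arrays began at -1.72. HOXA10 in Inter spread from -8.37 to -1.25 with a median of -5.29, and 8 of the 12 arrays were well above background. HOXA10 in Omen ran from -9.07 to -6.34 with a median of -8.38, and only 1 of 12 arrays was well above background. SC therefore did not overlap with any other fat depot, and IMF did not overlap with Omen.

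The mean of HOXA10 fell in the order SC, Kid, IMF, Inter and Omen. Against SC it was 13.1-fold lower in IMF (difference -3.71, SE 0.20, adjusted p = 7.71e-14), 88.1-fold lower in Inter (-6.46, SE 0.62, adjusted p = 3.32e-08), 5.24-fold lower in Kid (-2.39, SE 0.61, adjusted p = 2.94e-03) and 695-fold lower in Omen (-9.44, SE 0.28, adjusted p = 8.10e-18). The folds in Inter and Omen include the 4 and 11 arrays that were not well above background and are therefore no exact ratios, and without the slide S04 array that in Inter was 112-fold (-6.81). Neighbours in this order differed between Inter and IMF (adjusted p = 5.75e-04) and between Omen and Inter (adjusted p = 4.71e-03). Kid and IMF differed by 1.33 with an adjusted p of 0.072, and by 1.93 with an adjusted p of 1.39e-06 once the slide S04 Kid array was left out. Without that array the difference between Kid and SC was -1.79 (3.45-fold, adjusted p = 1.32e-06).

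Kid and Inter were also compared directly. HOXA10 was 16.8-fold higher in Kid (4.07, SE 0.85, adjusted p = 3.91e-03) and 32.6-fold higher without both slide S04 arrays (5.03, adjusted p = 9.45e-06). Only 8 of 12 Inter arrays were well above background, so these folds are no exact ratios. The slide S04 array labelled Kid read -7.67, inside the range of Inter. The slide S04 array labelled Inter read -1.25, above every other Inter array and inside the range of Kid. Within breeds, with 4 arrays a group, the Omen minus SC difference of HOXA10 was -9.06 for Angus, -9.40 for Hereford and -9.87 for Wagyu x Angus.

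**Figure D2:**
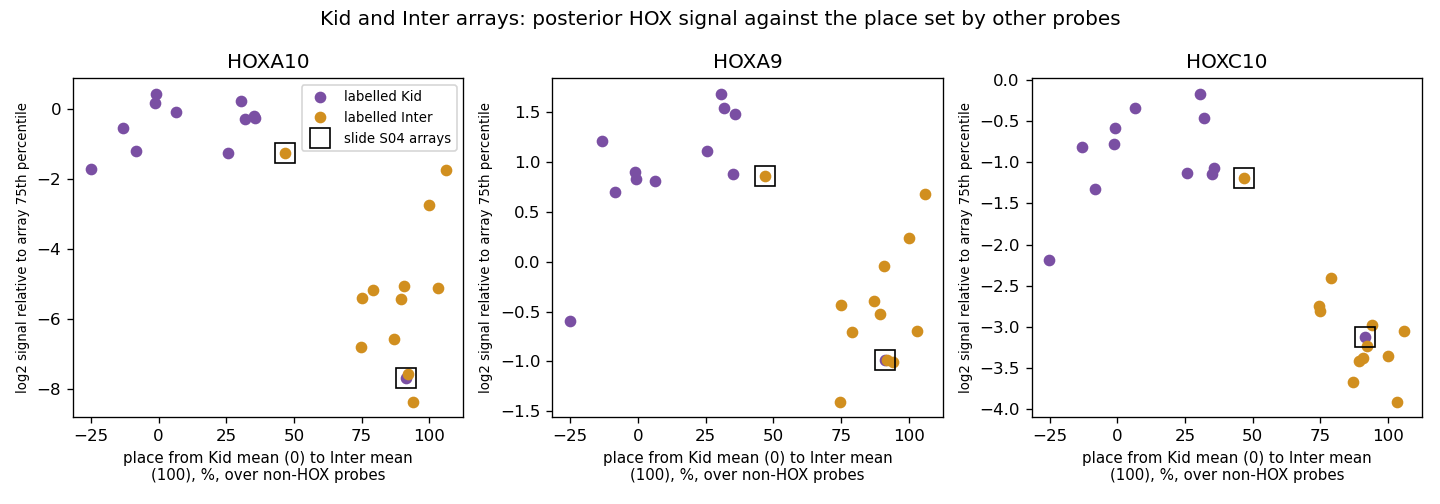
Signal of HOXA10, HOXA9 and HOXC10 on the 24 Kid and Inter arrays (vertical axis, log2 relative to the 75th percentile) against the place of each array between the Kid mean (0%) and the Inter mean (100%) over probes of other genes. The array labelled Kid at 91.4% has the signal of the Inter arrays for all of these genes, and the array labelled Inter at 46.8% has a signal in the range of Kid.

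HOXA9, the neighbour of HOXA10 in the cluster and a regulator of blood stem cells, ran from 0.85 to 1.83 in SC (median 1.39), from -0.99 to 1.69 in Kid (median 0.89) and from -0.03 to 1.62 in IMF (median 0.39). In Inter it ran from -1.41 to 0.86 (median -0.47). In Omen it ran from -6.01 to -3.22 (median -4.04), with all 12 arrays well above background. Omen did not overlap with any other depot. HOXA9 was 47.3-fold lower in Omen than in SC (-5.56, SE 0.24, adjusted p = 2.76e-14) and 32.0-fold lower than in Kid (adjusted p = 9.17e-10). It was 3.31-fold lower in Inter than in SC (adjusted p = 4.20e-07) and 1.85-fold lower in IMF (adjusted p = 3.50e-05), and the IMF call was lost with slide as a random block (-0.78, adjusted p = 0.0912), in the unscaled values (-0.28, adjusted p = 0.199) and within Hereford (adjusted p = 0.103). Kid against SC was not called (-0.56, adjusted p = 0.0576). The other probe of HOXA9 gave -5.04 for Omen against SC.

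The anterior end of the HOXA cluster ran another way. HOXA2, which patterns the hindbrain and the neighbouring arch, ran from -2.19 to -1.01 in SC (median -1.30) and from -2.73 to -1.13 in Omen (median -2.09). In IMF it ran from -4.28 to -2.74, in Kid from -5.25 to -2.80 and in Inter from -4.70 to -2.81. Neither SC nor Omen overlapped with IMF, Inter or Kid. HOXA2 was 4.38-fold lower in IMF than in SC (-2.13, SE 0.16, adjusted p = 7.31e-11), 5.88-fold lower in Inter (adjusted p = 7.72e-09) and 4.69-fold lower in Kid (adjusted p = 4.48e-08). The Omen difference of -0.67 (adjusted p = 1.57e-03) was smaller, was lost with scan day or slide as a block (adjusted p = 0.0789 and 0.148) and was 0.15 in the unscaled values. No pair of the 3 low depots passed an adjusted p under 0.05, except Inter against IMF without the slide S04 array (-0.53, adjusted p = 0.0447). A second HOXA2 probe outside the tested set, A_73_P379841, ran the other way between IMF and SC, with means of -6.24 and -7.82 and 7 and 1 of 12 arrays well above background.

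HOXA3, HOXA4 and HOXA5, which pattern the neck and upper chest, were lower in SC than in Omen. HOXA5, which also acts in lung formation, rose from a mean of -1.67 ± 0.18 in SC over -1.28 ± 0.25 in IMF, -0.95 ± 0.34 in Inter and -0.58 ± 0.53 in Kid to -0.11 ± 0.37 in Omen (SD, n = 12 each). The Omen and SC arrays of HOXA5 did not overlap, and the difference was 2.95-fold (1.56, SE 0.12, adjusted p = 4.98e-10). HOXA4 was 2.43-fold higher in Omen than in SC (1.28, adjusted p = 1.85e-09) and 2.34-fold higher in IMF (1.22, adjusted p = 2.72e-10), again with no overlap. HOXA3 was 1.40-fold higher in Omen than in SC (adjusted p = 2.69e-03), but its 3 probes did not share a sign there (-0.40 to 0.48). Along the HOXA cluster, Omen was thus above SC at HOXA3, HOXA4 and HOXA5 and below it at HOXA2 (0.15 above it in the unscaled values), HOXA9 and HOXA10.

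In the HOXB cluster HOXB2, a hindbrain gene, gave the widest range. It ran from -3.95 to -3.1 in SC (median -3.49), from -3.70 to -2.75 in IMF (median -2.98) and from -2.85 to -2.12 in Inter (median -2.45). In Kid it ran from -3.81 to -2.12 (median -2.54), and in Omen from -2.21 to -1.55 (median -1.93). Omen did not overlap with SC or IMF. HOXB2 was 3.1-fold higher in Omen than in SC (1.63, SE 0.10, adjusted p = 1.56e-11), 2.06-fold higher in Inter (adjusted p = 5.14e-08), 1.89-fold higher in Kid (adjusted p = 2.29e-05) and 1.41-fold higher in IMF (adjusted p = 6.06e-04). The second HOXB2 probe disagreed: it differed from SC by -0.87 in Inter, also past the threshold, by -0.23 in Kid and by -0.20 in Omen (adjusted p = 0.0703 and 0.187). For Inter against SC the mean of both probes gave 0.09 with an adjusted p of 0.458. Omen against Kid, at 0.71 on the brightest probe (adjusted p = 2.42e-03), was not called in the unscaled values (0.65, adjusted p = 0.0512). Nor was it called within any single breed.

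HOXB9, a posterior gene that acts on the ribs, ran from -6.51 to -4.62 in Inter (median -5.50) and from -5.05 to -2.64 in SC (median -4.34), with overlap. It was 2.47-fold lower in Inter than in SC (-1.31, SE 0.25, adjusted p = 1.36e-04), and the differences of IMF, Kid and Omen from SC were -0.25, -0.18 and -0.39 (adjusted p = 0.415, 0.683 and 0.238). The Inter call was lost in the unscaled values (-0.11, adjusted p = 0.69), and with scan day as a block IMF and Omen were called lower (-1.11 and -1.23, adjusted p = 6.41e-03 and 4.35e-03). The Omen value used 11 arrays, since 1 spot was marked as an outlier. HOXB3, another hindbrain gene, had overlapping ranges in all fat depots, from -5.19 to -2.22 over the 5. It was 1.53-fold lower in IMF than in SC (adjusted p = 4.16e-04) and 1.41-fold lower in Kid (adjusted p = 0.0457). The Kid call lay near the threshold: the difference was -0.50 with and without the slide S04 array (adjusted p = 0.0556 without it), and the call was also lost with breed as a covariate, under quantile normalization, with scan day or slide as a block and without the slide S21 array (adjusted p = 0.0515 to 0.206). The IMF call was lost with scan day as a block (-0.08, adjusted p = 0.804) and with slide as a random block (adjusted p = 0.0645). Both differences had the opposite sign in the unscaled values. HOXB4, a regulator of blood stem cells, had depot means of 0.47 to 0.73 on its brightest probe, while the probe A_73_114875 had -3.13 in SC and -2.15 in Omen.

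In the HOXC cluster HOXC10, which acts in the lumbar cord and the hind limb, had its lowest depot means, like HOXA10, in Inter and Omen. It ran from -1.57 to -0.46 in SC (median -0.91), from -3.12 to -0.17 in Kid (median -0.94) and from -3.12 to -1.40 in IMF (median -2.10). In Inter it ran from -3.92 to -1.19 (median -3.14) and in Omen from -5.04 to -3.59 (median -4.16). The lowest Kid array and the highest Inter array were again those of slide S04, and without them Kid began at -2.19 and Inter ended at -2.40. Omen did not overlap with SC, Kid or IMF. HOXC10 was 8.90-fold lower in Omen than in SC (-3.15, SE 0.14, adjusted p = 4.75e-14), 4.06-fold lower in Inter (adjusted p = 1.40e-07) and 2.23-fold lower in IMF (adjusted p = 4.10e-06). Kid and SC differed by -0.10 (SE 0.25, adjusted p = 0.778), by 0.09 without the slide S04 array and by 0.75 in the unscaled values (adjusted p = 5.73e-03). Omen was 8.31-fold lower than Kid (adjusted p = 2.58e-08).

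HOXC11, a gene of the hind limb and lumbosacral region, was outside the tested set and was picked after its values were seen. Its probe A_73_P090116 was well above background on 12 of 12 SC arrays, which ran from -5.29 to -3.87. No IMF or Omen array was well above background, against 1 Inter array, 4 Kid arrays and 1 of 36 LD arrays. The 1 Inter array was that of slide S04 (-6.71), and the highest Kid array read -5.11. HOXC11 in SC was at least 7.58-fold higher than in IMF (adjusted p = 2.24e-16) and at least 7.29-fold higher than in Omen (adjusted p = 1.34e-12), where each dim array was set at the lowest signal among its probes well above background or its own, whichever was higher. These p-values came from a fit over all probes that are not controls. The other HOXC11 probe, A_73_102304, read otherwise: it was well above background on 2 SC, 1 IMF, 8 Inter, 4 Kid and 4 Omen arrays, and the depot F test did not pass (adjusted p = 0.077). HOXC13, a gene of hair and nails, was lower in Inter than in SC by 0.41 on the log2 scale and was not called in the other 3 depots, and in the unscaled values Inter was 0.68 above SC (adjusted p = 2.80e-04). A second HOXC13 probe outside the tested set, A_73_P042926, was well above background on 6 SC, 1 IMF and 1 Omen array and on no Inter or Kid array. With the dim Inter and Kid arrays set as for HOXC11, the SC mean was 2.84-fold above Inter and 2.47-fold above Kid. That mean includes SC arrays that were not well above background, so these folds are no strict lower bounds.

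HOXC6, which marks the thoracic region, was bright in every tissue. It ran from 1.40 to 1.95 in SC, from 2.31 to 2.81 in IMF, from 1.79 to 2.23 in Inter, from 0.62 to 2.90 in Kid and from 0.53 to 1.55 in Omen. IMF did not overlap with SC, Inter or Omen. HOXC6 was 1.74-fold higher in IMF than in SC (adjusted p = 7.50e-10) and 1.57-fold lower in Omen (-0.65, adjusted p = 5.50e-06), although the Omen difference was 0.17 in the unscaled values. HOXC5, a neck gene next to it, ran from -3.81 to -2.54 in SC and from -5.02 to -2.88 over the other 4 depots. It was lower than in SC in all of these, by 1.78-fold in IMF, 1.84-fold in Inter, 1.97-fold in Kid and 1.83-fold in Omen (adjusted p = 2.54e-05, 1.44e-04, 1.37e-03 and 2.00e-05), and none of these calls held in the unscaled values.

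In the HOXD cluster HOXD4, a gene of the hindbrain and neck, ran from 0.38 to 0.92 in SC, from 0.95 to 1.58 in IMF, from 0.32 to 1.08 in Inter and from -0.999 to 1.10 in Kid. In Omen it ran from -1.43 to -0.23, below every SC, IMF and Inter array. HOXD4 was 2.72-fold lower in Omen than in SC (-1.44, SE 0.11, adjusted p = 6.21e-10). It was 1.43-fold higher in IMF than in SC (adjusted p = 4.21e-06), a call lost with scan day as a block (adjusted p = 0.218). The lowest Kid value of HOXD4 was the array at position 1 of slide S21, which was also the lowest Kid array for HOXA2, HOXB2, HOXB3 and HOXC6. HOXD10, a posterior gene of the hind limb, was near background: 3 to 10 of 12 arrays per depot were well above it, and it was called lower in Omen than in Kid (-1.36, with 11 Omen arrays after 1 outlier spot).

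**Figure D3:**
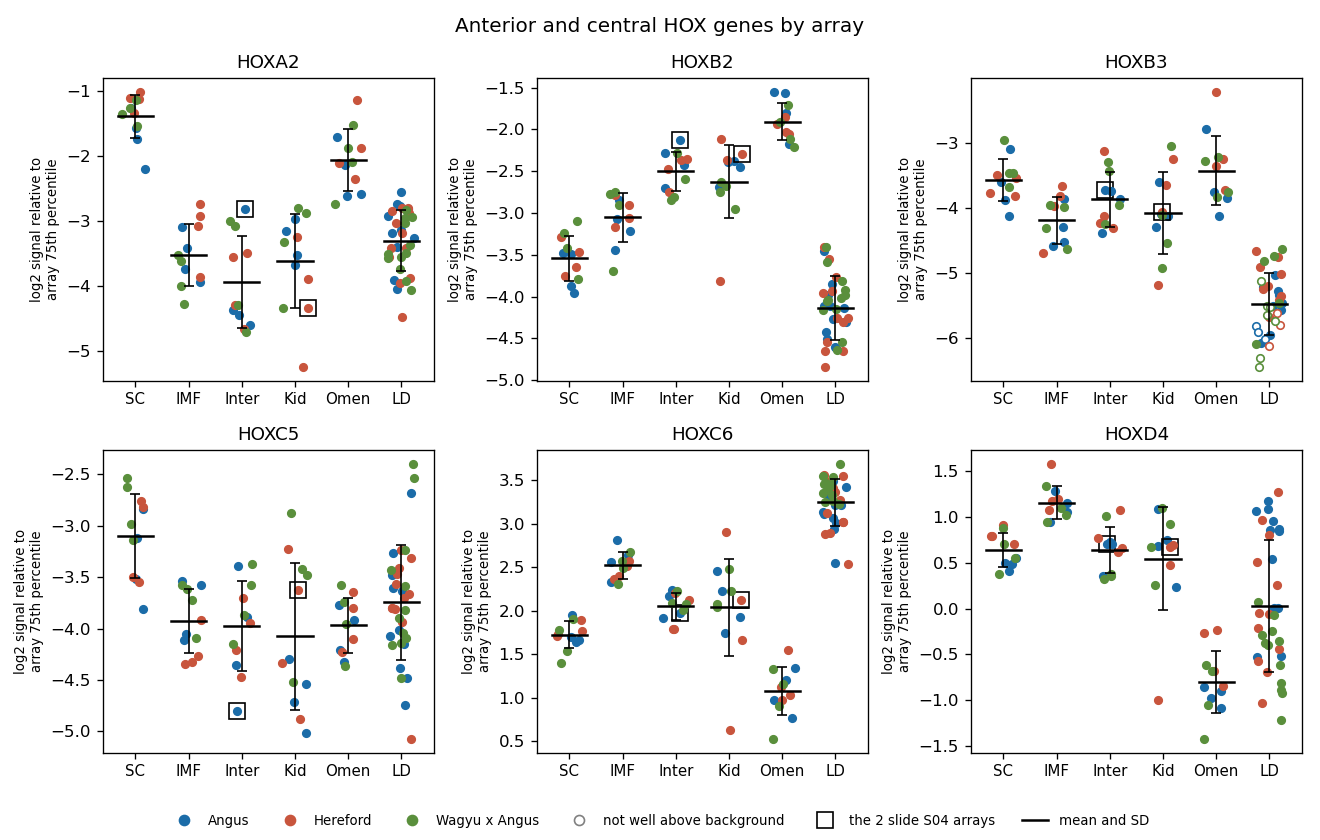
Anterior and central HOX genes by array, drawn as log2 signal relative to the 75th percentile by tissue, with breeds as colours, squares for the slide S04 arrays and bars for the mean and SD. HOXA2 is highest in SC and Omen, HOXB2 is highest in Omen, and HOXC6 and HOXD4 are lowest in Omen among the fat depots (HOXC6 was 0.17 above SC in the unscaled values).

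Between IMF and SC 13 of 18 HOX genes were called against 69.1% of all named genes, of which 7 were higher in IMF (background 30.1%) and 6 lower (39.0%). Between Inter and SC 13 were called (52.4%), 4 higher (19.6%) and 9 lower (32.8%). Between Kid and SC 7 were called (44.7%), 3 higher (20.9%) and 4 lower (23.8%). Between Omen and SC 11 were called (50.9%), 4 higher (19%) and 7 lower (31.9%). Whether these counts differ from the background was not tested, and the count for Inter was 8 of 18 with slide as a random block. In the unscaled values the split of higher to lower became 11 to 3 for IMF, 11 to 4 for Inter, 12 to 2 for Kid and 9 to 4 for Omen, where the median of all genes moved up by 0.63, 1.02, 0.87 and 0.85 on the log2 scale. The shares of all named genes called in those values or with the slide block are not given here. These counts are therefore not set against a background.

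The HOX genes that were also at least 4-fold lower than SC were few, and so were such genes in the background. They were HOXA2 and HOXA10 in IMF (2 of 18, background 1.53%), HOXA2, HOXA10 and HOXC10 in Inter (3, background 0.329%), HOXA2 and HOXA10 in Kid (2, background 0.732%) and HOXA9, HOXA10 and HOXC10 in Omen (3, background 0.432%). No HOX gene was at least 4-fold higher in any of these depots. Without the slide S04 Kid array HOXA10 was 3.45-fold lower in Kid and no longer reached 4-fold. In the unscaled values the 3 genes in Omen remained (background 0.122%), but only HOXA10 did for IMF and for Inter (0.329% and 0.0375%) and no gene did for Kid (0.178%). The median difference from SC over the 6 posterior genes was -0.57 for IMF, -1.52 for Inter, -0.14 for Kid and -1.89 for Omen, beside -0.07, -0.09, 0.00 and -0.09 over all named genes. By count 3, 5, 1 and 3 of the 6 posterior genes were called lower, beside 39.0%, 32.8%, 23.8% and 31.9% of all named genes. In the unscaled values these medians were 0.05, -0.42, 0.68 and -0.88, beside 0.56, 0.92, 0.87 and 0.76 over all named genes, and 2, 3, 1 and 3 posterior genes were called lower. For those counts the share of all named genes called lower in the unscaled values is not given here. These 4 comparisons share the same 12 SC arrays. Of the 7 HOX genes with more than 1 tested probe, all probes had the same sign against SC for 5 (IMF), 3 (Inter), 5 (Kid) and 4 (Omen) of them.

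Omen and Kid are both fat of the abdominal cavity. Between them 10 of 18 HOX genes were called against 15% of all named genes, 4 higher in Omen and 6 lower, and HOXA9, HOXA10 and HOXC10 were at least 4-fold lower (background 0.169%). In the unscaled values the split was 2 to 5, for which no share of all named genes is given. HOXA2 went the other way, 2.95-fold higher in Omen (adjusted p = 2.70e-04) with no overlap between the arrays. Among the other pairs, 13 HOX genes were called between Omen and Inter (13.8% of all genes) and 5 between Kid and Inter (17.4%): HOXA9, HOXA10, HOXB9, HOXC10 and HOXC4. Against IMF 13 were called in Inter (67.1%), 8 in Kid (61.2%) and 11 in Omen (61.3%).

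**Figure D4:**
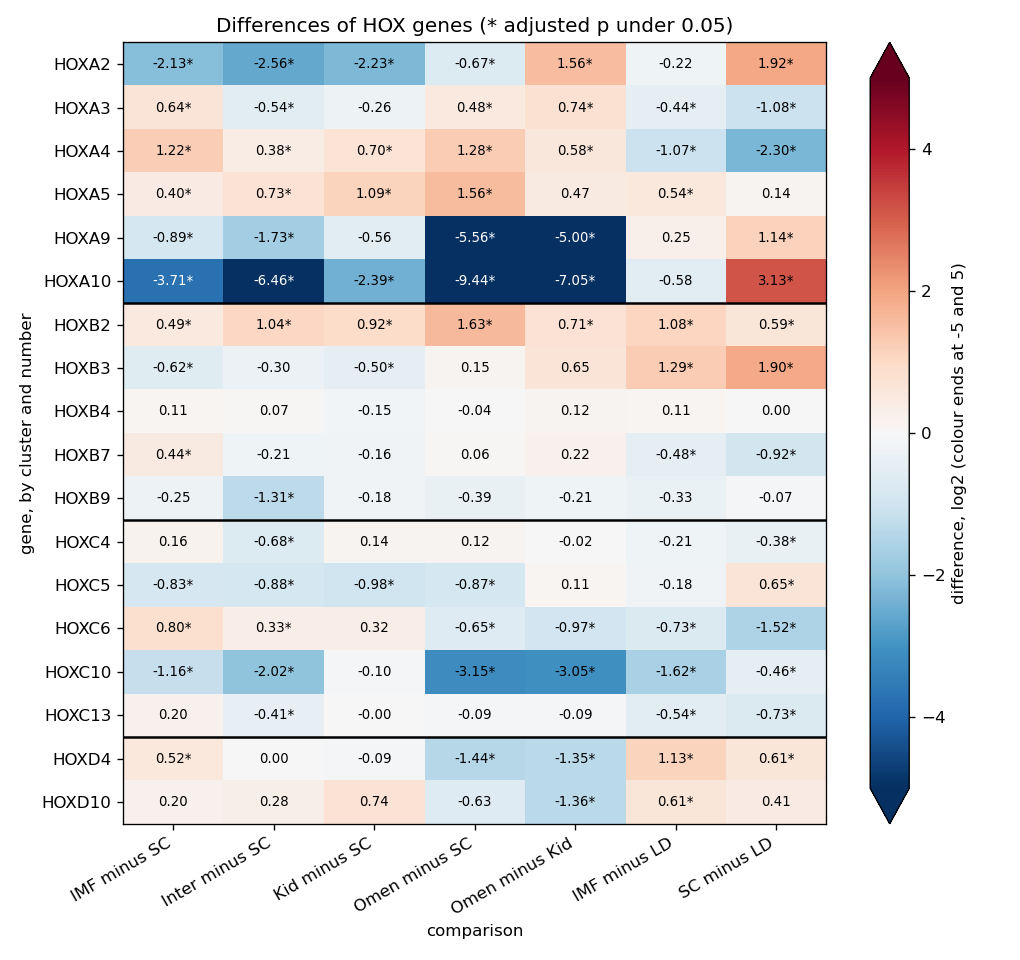
Differences of the 18 HOX genes in 7 comparisons, as log2 signal of the first tissue minus the second, ordered by cluster and paralogue number. Asterisks mark an adjusted p under 0.05 and the colour scale ends at -5 and 5, so that values beyond -5 share the deepest blue, among them HOXA9 (-5.56) and HOXA10 (-9.44) in Omen minus SC; in that comparison HOXA3, HOXA4 and HOXA5 between HOXA2 and HOXA9 are red.

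Whole LD muscle gives a reference for IMF, which is dissected from it. The LD arrays of both diets were pooled, and the methods of the study name an earlier slaughter for some LD samples. In the comparisons of IMF and SC with LD, tissue and slaughter time therefore cannot be fully told apart. HOXA10 in LD ran from -3.83 to -0.11 (median -1.71), HOXA9 from -1.30 to 1.69 (median 0.29) and HOXC10 from -1.32 to 0.43 (median -0.54). HOXC10 was lower in IMF than in both its neighbours, by 1.16 against SC and by 1.62 against LD on the log2 scale (3.07-fold, SE 0.15, adjusted p = 4.56e-14), and the IMF and LD arrays did not overlap. HOXA10 in IMF was likewise below both means, but its difference from LD of -0.58 had an adjusted p of 0.0784, which fell to 0.0175 under quantile normalization. HOXC6 was 3.25 ± 0.27 in LD (SD, n = 36), so IMF at 2.52 lay between SC and LD, but in the unscaled values IMF and LD differed by only 0.036 (adjusted p = 0.813). HOXA4 was 4.91-fold lower in SC than in LD (-2.30, adjusted p = 5.33e-25).

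Between IMF and LD 11 of 18 HOX genes were called against 79.5% of all named genes, 5 higher in IMF and 6 lower, and none reached 4-fold (background 6.74%). Quantile normalization made this split 4 to 11, and the unscaled values 11 to 1. Shares of all named genes under these scalings are not given here. Between SC and LD 14 were called (85.7%), and HOXA4 and HOXA10 passed 4-fold (background 21.8%). HOXB3 was 3.74-fold higher in SC than in LD, where 23 of 36 arrays were well above background. In LD, supplement against pasture gave 4 called HOX genes (12.8% of all genes): HOXB2 was higher by 0.45 in supplemented animals, and HOXA4, HOXB9 and HOXC4 fell by 0.36, 0.71 and 0.51 (adjusted p = 0.0276, 0.0491 and 0.0155). The HOXB2 call was lost in the unscaled values (0.23, adjusted p = 0.302), and the HOXB9 call in 6 of the alternative settings run. The methods of the study name an earlier slaughter for some LD samples that the labels do not mark, so diet and slaughter cannot be told apart here. The 12 supplement arrays filled 3 slides and the pasture arrays 6 others. With slide as a random block none of the 18 HOX genes was called by limma, and 2 passed an unadjusted p under 0.05, HOXB2 and HOXC4 (adjusted p = 0.506 and 0.571). How many of all named genes were called with that block is not given here.

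No HOX gene was called between breeds in the limma F test over the fat arrays, against 3.7% of all named genes, and 2 passed an unadjusted p under 0.05, HOXB9 and HOXC5 (adjusted p = 0.279 and 0.100). HOXC5 had the highest mean in Wagyu x Angus in each of the 5 depots. For HOXC5 in SC the mean was -2.82 ± 0.29 for Wagyu x Angus, -3.16 ± 0.42 for Hereford and -3.32 ± 0.43 for Angus (SD, n = 4 each). Depot differences that depend on breed were not called for any HOX gene (background 0.0%), and 2 passed an unadjusted p under 0.05, HOXA3 and HOXC4. HOXA10 in SC had breed means of 1.45 ± 0.05, 1.25 ± 0.66 and 1.37 ± 0.34 in Angus, Hereford and Wagyu x Angus (SD, n = 4 each). Within Hereford alone no HOX gene was called between Omen and Kid by limma, and 7 passed an unadjusted p under 0.05. How many of all named genes were called within Hereford is not given here. The 4 Hereford Kid arrays include those of slides S04 and S21.

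Scan day was unevenly spread: all IMF arrays were scanned on day 3, all Inter arrays on day 2, and 11 of 12 SC arrays on day 1. Called differences of the named genes gave 26 values within a single day with at least 2 arrays on each side, and all 26 kept their sign. They came from Kid against SC, Omen against Kid (with 2 Omen arrays), SC against LD and IMF against LD. None came from IMF, Inter or Omen against SC. A further 38 values had 1 array on at least 1 side, mostly the same SC array of day 3. Of these 36 kept their sign, but 7 of the 38 were under 50% of the pooled difference, such as HOXC5 between IMF and SC (-0.12, pooled -0.83). HOXA10 differed between Omen and SC by -9.53 on day 3 (10 arrays against 1) and between Kid and SC by -1.93 on day 1 (5 against 11). Inter and SC share no scan day, so for that pair day and depot cannot be told apart within a day.

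Of the TALE cofactors 8 of 9 listed were measured. Between Omen and SC, where 19% of all named genes were called higher and 31.9% lower with a median of -0.09, 5 of these were higher and none lower, with MEIS1 higher by 1.39 (adjusted p = 7.26e-09), and between IMF and SC 3 were higher and 3 lower. MEIS1 was also higher in Omen than in Kid (1.08, adjusted p = 1.83e-04). Of the Polycomb and Trithorax genes 12 of 23 were measured, with 1 higher and 2 lower between Omen and SC and a median difference of 0.02. On the Trithorax side only MEN1 was measured, and KMT2A and KMT2B were not. Of the genes that flank the HOX clusters 17 of 21 were measured, with 2 higher and 6 lower between Omen and SC (median -0.10). None of these lists had a gene that reached 4-fold in a comparison of SC with another fat depot. Of the mesothelial markers 6 of 10 listed were measured. MSLN and KRT18 were at least 4-fold higher in Omen than in SC and in Kid, while 2 of the others were called lower in Omen than in SC. The mean level of those 6 ran from -0.82 to 1.88 in Omen and from -0.61 to -0.13 in SC, and the part of the mesothelium in the HOX values of Omen was not tested.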

How the data were processed

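The authors deposited 1-colour Agilent scanner files, whose processed signal is a background-subtracted intensity per spot, together with a log2 table covering 34227 probes. The values of that table equalled, within 0.001, the log2 of the median spot signal less the median background, with a floor. The deposited log2 values are thus unscaled. They also rest on another signal than the processed one used for this report, with no outlier spots left out. The methods of the study describe Trizol extraction, a choice of samples by RNA integrity and purity, and a mixed-model normalization that this table does not carry. The array design names Btau_3.1. For this report spots marked as outliers were left out, spots of a probe were averaged, and each array was set to its 75th percentile. Differences were tested with limma 3.58.1 in R 4.3.3 (lmFit, eBayes, Benjamini-Hochberg over the probes of the table) between arrays of the groups compared, checked on simulated data first. Named were, in each cluster, up to 3 genes with the widest range of depot means among those well above background on every array of a depot, and HOXA10. The other genes are given by counts or as examples chosen after their values were seen. The members and lists were chosen with earlier results of these data known. Alternatives covered scaling, background, filters, probes, blocks and single breeds. No sequence is shown. 0 columns of other samples were left unused.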

Additional observations from a re-analysis of the deposited data

How the results depend on the processing

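Counts are of HOX genes called, of 18. The share of all named genes called under each alternative is not given here, so a changed count is not read as particular to the HOX genes. The count between Inter and SC (13) became 8 with slide as a random block, 3 within Angus and 7 within Wagyu x Angus. That between Kid and SC (7) became 14 in the unscaled deposited values and 1 within Hereford. That between Omen and SC (11) became 7 within Angus. That between Omen and Kid (10) became 4 within Angus, 0 within Hereford and 4 within Wagyu x Angus, with fewer arrays in each. That between supplement and pasture in LD (4) became 0 with slide as a random block over the LD arrays. The count between breeds (0) became 1 under quantile normalization.

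Among the 10 named genes the sign turned for 12 differences that were called with or without the alternative, and for 34 that were called in neither. In the unscaled values these were HOXB3 in IMF, Inter and Kid against SC (0.057, 0.76 and 0.37), HOXC5 in Inter against SC (0.20), HOXC10 and HOXD4 in Kid against SC (0.75 and 0.84), HOXA2 and HOXC6 in Omen against SC (0.15 and 0.17), and HOXA2, HOXC5 and HOXC6 in IMF against LD (0.52, 0.58 and 0.036). There the median of all genes also moved by 0.78 between IMF and LD, so a shift shared by all genes is part of each value. The spot signal differs as well, and these parts were not separated. With scan day as a block HOXD4 in Inter against SC was -0.80, and the cause was not tested. HOXC13, not among the named genes, also turned in the unscaled values in Inter, Kid and Omen against SC (0.68, 0.92 and 0.72). Of the other results for the 10 named genes, 1126 kept their direction and side of the threshold, 28 passed it newly and 70 no longer passed it.

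The replicate numbers of the labels are slide positions and repeat within a breed and depot, so they do not identify steers. With the replicate block 17 HOX genes differed between depots and 0 between breeds, and 13, 13, 7 and 11 were called in IMF, Inter, Kid and Omen against SC and 8 in Omen against Kid. For this setting too the share of all named genes is not given. The alternatives that leave out the arrays of slides S04 and S21, or the arrays with most outlier spots, and the slide block over the LD arrays were chosen after seeing the data. Signal over background limits HOXA10 in Inter and Omen, HOXC11 outside SC and, for its probe A_73_102304, also in SC, HOXD10 and HOXB3 in LD.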
